A study of Mus musculus with 6 samples.

Results

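The scratched Lingo2 knockout library was compared with the scratched parental library, 1 library each of the 6 in the series, over all 46078 gene identifiers of the count table apart from the summary lines of HTSeq. The cells were MLE12, an immortalized mouse lung epithelial line. The parental line was either left unscratched or scratched, and the Lingo1, Lingo2, Lingo3 and TROY mutant lines were all scratched, with RNA taken 24 hours after the scratch. Messenger RNA was sequenced, and the Lingo2 knockout library held 28579338 counted reads against 29307338 in the scratched parental library (28109825 to 30776294 over the 6). The sources used here do not say how the mutants were made or whether each line grew from 1 cell. With no second culture in any group there was no replicate error and no p-value could be given. A difference between 2 libraries is therefore a difference between those libraries, and the 95% intervals below cover counting error only.

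LINGO proteins are single-pass membrane proteins with leucine-rich repeats and an immunoglobulin domain on the outside of the cell. LINGO1 is best known from neurons and oligodendrocytes, where it joins the Nogo receptor and either the p75 neurotrophin receptor or TROY (gene Tnfrsf19) in a complex that limits axon growth and myelination through RhoA. LINGO2 is a relative with fewer known partners. A scratch in an epithelial sheet is closed by spreading, migration and later division of the cells at its edge, and EGF receptor ligands, ERK signalling and early response transcription factors are classical parts of that response.

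The targeted gene gave no check of the label. Lingo2 (chromosome 4, 35706647 to 36951747 on GRCm38) had 0 reads in each of the 6 libraries, both parental ones included, which allows up to 3 reads or 0.0986 CPM (counts per 1000000 scaled reads) in the scratched parental library. Lingo3 had 1 read in the Lingo2 knockout library and 0 in the others, and Tnfrsf19, the gene of TROY, had 1 read in the scratched parental and 3 in the Lingo2 knockout library. Lingo4 had 40 and 30 reads. Lingo1 was the expressed member of the family. Its reads numbered 791 and 744 in the unscratched and scratched parental libraries, 1469 in the Lingo2 knockout and 1579, 1564 and 1044 in the Lingo1, Lingo3 and TROY knockouts. The scaled level was 2.12-fold higher (1.94 to 2.32) than in the scratched parental library, and 1.88-fold higher than in the unscratched one, short of the size rule. Of the 9 tested members of a list of LINGO and Nogo receptor partners, Lingo1 was the 1 past the rule (median log2 fold 0.10). Within 5 Mb of the Lingo2 locus, 50 genes were tested and 0 passed the size rule, with ratios from 0.762 to 1.80.

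A gene was tested where its level averaged 1 CPM or more across the series. Of 12078 such genes, 256 were higher in the Lingo2 knockout library and 167 were lower, by a size rule that asks for a fold of at least 2 with the interval bound nearest to 1 beyond 1.5. The shares of the tested genes were 2.12% and 1.38%, or 3.50% in either direction, and they are the background for the counts of gene lists below. For the nuclear non-coding RNAs the share of their own gene type is given as well. The median log2 fold of all tested genes was 0.02, with 6418 above and 5660 below no change. With the total of counted reads as library size the calls were 207 higher and 200 lower, so the excess of higher genes was smaller under that scaling. With no expression filter they were 351 higher and 404 lower, so the excess lay on the lower side. The filter averages over the mutant libraries as well, so a gene high in any of them passes it more easily. The split between directions, here and in the gene lists below, therefore depends on this filter. The median fold of the called genes was 2.69 in the higher and 2.54 in the lower direction. Most were modest, with 157 of the higher and 118 of the lower genes under 3-fold, while 5 and 4 reached 10-fold. Called genes had low levels, with a median of 5.71 CPM for the higher and 3.22 CPM for the lower genes against 36.3 CPM for all tested genes. Kcnab2, Rpl23a and Rgs2 lay just inside the fold threshold on the higher side and Col8a2, Ccdc88b and B3gnt3 just outside it (folds 2.003 to 2.004 and 1.97 to 1.99). On the lower side Plekhg4, Tia1 and Coro6 lay just inside, and Rhbdl3, Stk39 and Scai just outside (2.02 to 2.03 and 1.96 to 1.99).

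**Figure D1:**
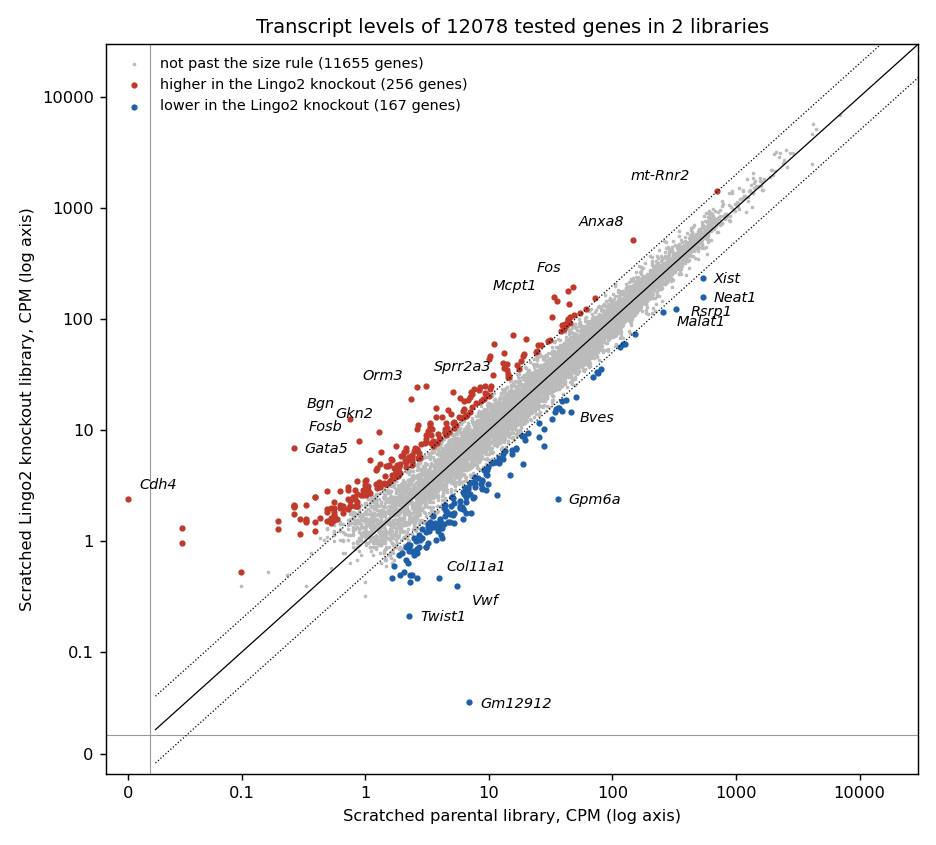
CPM of the tested genes in the scratched parental library (horizontal, log axis) and the scratched Lingo2 knockout library (vertical, log axis), 1 point per gene, with genes at 0 reads drawn beyond the grey line. The solid line marks equal levels and the dotted lines a fold of 2, and the 256 higher (red) and 167 lower (blue) genes lie mostly at low levels.

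The unscratched parental library served as a second control, against the same Lingo2 library. Against it, 169 of the 256 higher and 110 of the 167 lower genes also passed the size rule, 256 and 166 lay on the same side of no change, and 0 passed it in the opposite direction. Against that control 222 genes were called higher (1.84%) and 134 lower (1.11%) in all, or 2.95% in either direction. Both parental libraries differed past the rule from each other for 5 of the 423 called genes, namely Vwf, Boc, Dysf, Gm12912 and Gm13456. For Vwf, which codes for von Willebrand factor, an endothelial and platelet adhesion protein, the scratched parental library alone was high. It held 169 reads, against 16 in the unscratched parental, 11 in the Lingo2 knockout, and 17, 37 and 15 in the Lingo1, Lingo3 and TROY knockouts. The pseudogene Gm12912 had 211 reads in that library and at most 2 in any other. The endothelial cadherin Cdh5 had 20 reads in it and at most 1 elsewhere, and of 14 endothelial markers 3 were tested, with Vwf lower and Flt1 higher. Among genes named below, Cd74, Cdsn, Cmc4, Col11a2, Col18a1, Cxcl15, Dbp, Ecm1, Efna3, Epcam, Fgf7, Hbegf, Id1, Igfbp4, Igfbp5, Leng8, Malat1, Muc5b, Nt5e, Oas3, Rdh10, Tia1, Tnfaip2 and Usp18 did not pass the rule against the unscratched control. With total counted reads as library size, Dbp, Dusp4, Hbegf, Id1, Igfbp4, Itga6, Mcpt2, Muc5b and mt-Rnr2 fell under a fold of 2, and Notch1, Sfrp1 and Usp18 missed the bound. The fold moved by over 1.5 times with the unscratched control for further genes, to 3.18 for Dusp4, 1.77 for Efna3, 5.83 for Gjb5, 7.60 for Notch1, 2.03 for Oas3, 13.6 for Sprr2a3 and 2.37 for Tnfaip2. For Pdgfrb, Sfrp1 and Stra6, with 1 to 3 reads in that control, it was 12.5 (3.96 to 63.4), 15.2 (2.34 to 640.2) and 13.7 (3.44 to 119).

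The comparisons of each mutant with the scratched parental library share that library, so the levels are given side by side and the mutants are compared with each other directly. The Lingo2 knockout library differed least from the Lingo1 knockout library. Of the 12078 genes, 2 were higher in the Lingo2 library (0.0166%) and 0 were lower, and those 2 were CT010467.1 and n-R5-8s1, a ribosomal RNA. Reads of n-R5-8s1 numbered 845 and 686 in the unscratched and scratched parental libraries, 700 in the Lingo2 knockout and 234, 86 and 460 in the Lingo1, Lingo3 and TROY knockouts. Against the Lingo3 knockout 44 genes were higher (0.364%) and 151 lower (1.25%), 1.61% in either direction, and against the TROY knockout 31 were higher (0.257%) and 13 lower (0.108%), 0.364% in either direction. The median absolute log2 fold over all tested genes was 0.11 against Lingo1, 0.15 against Lingo3, 0.16 against TROY and 0.19 against the scratched parental library. Over the 256 genes higher than in the parental library, the Lingo2 level lay a median of 0.08 log2 units above Lingo1, -0.26 relative to Lingo3 and 0.43 above TROY. Over the 167 lower genes the same medians were 0.01, 0.40 and -0.22. No gene was found for which the Lingo2 library passed the size rule in 1 direction against all 4 other scratched libraries.

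Early response genes stood higher in the Lingo2 knockout library. Of 24 tested immediate early and AP-1 genes, which code for transcription factors and regulators induced within minutes of growth factor or stress signals, 5 passed the size rule as higher and 0 as lower, and all 24 had a ratio above 1 (median log2 fold 0.60 against 0.02 for all tested genes). Fosb stood at 1.19 CPM in the unscratched and 0.888 in the scratched parental library, at 7.89 in the Lingo2 knockout, and at 8.59, 9.91 and 11.1 in the Lingo1, Lingo3 and TROY knockouts. It was 8.89-fold higher (5.95 to 13.8) than in the scratched parental library, as the member of the AP-1 family that moved most. The levels of Fos were 42.4 and 48.0 CPM in the unscratched and scratched parental libraries, 196 in the Lingo2 knockout and 208, 218 and 188 in the Lingo1, Lingo3 and TROY knockouts. Fos, the founding AP-1 member (chromosome 12, 85473890 to 85477273), was 4.08-fold higher (3.85 to 4.32). Both parental libraries lay below all 4 mutants for these 2 genes, and the scratched one was close to the unscratched one.

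For Atf3 the parental libraries gave 8.10 CPM unscratched and 10.2 scratched, the Lingo2 knockout 46.4, and the Lingo1, Lingo3 and TROY knockouts 45.5, 51.8 and 46.5. Atf3, a stress-induced bZIP factor, was 4.56-fold higher (4.03 to 5.18). Egr2 was read at 15.7 CPM in the Lingo2 knockout against 3.75 in the scratched and 3.04 in the unscratched parental library, with 19.96, 21.6 and 17.2 in the Lingo1, Lingo3 and TROY knockouts. Egr2, a zinc finger factor, was 4.20-fold higher (3.41 to 5.21), and Zfp36, whose protein tristetraprolin speeds decay of AU-rich messenger RNAs, was 3.21-fold higher (2.99 to 3.45) with 32.5 CPM in the parental and 104 in the Lingo2 library. Abundant members had ratios under 2, of 1.95 for Junb, 1.85 for Egr1, 1.49 for Ier3 and 1.40 for Jun.

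Among 17 tested ERK feedback genes, 3 were higher and 0 lower (median log2 fold 0.19). All 3 code for dual-specificity phosphatases, which remove the activating phosphates of MAP kinases. The levels of Dusp1 were 42.1 and 43.8 CPM in the unscratched and scratched parental libraries, 100.1 in the Lingo2 knockout and 99.8, 113 and 102 in the Lingo1, Lingo3 and TROY knockouts. For Dusp5 the parental libraries gave 8.69 CPM unscratched and 8.42 scratched, the Lingo2 knockout 24.5, and the Lingo1, Lingo3 and TROY knockouts 26.96, 22.1 and 20.7. The folds were 2.29 for Dusp1, 2.91 for Dusp5 and 2.05 for Dusp4. Dusp6, the phosphatase most often read as an ERK output, had a ratio of 1.33 and Spry4 one of 1.19.

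Of 10 tested EGF family ligands and receptors, 3 ligands were called higher and 1 receptor, Egfr, lower (median log2 fold 0.22). In all, 6 of the 10 had a ratio above 1 and 4 below. Areg stood at 1.54 CPM in the unscratched and 1.45 in the scratched parental library, at 3.86 in the Lingo2 knockout, and at 3.28, 3.28 and 3.42 in the Lingo1, Lingo3 and TROY knockouts. Amphiregulin was 2.67-fold higher (1.86 to 3.88), and its neighbour on chromosome 5, epiregulin (Ereg), was 2.58-fold higher (1.89 to 3.57) with 1.91 CPM in the parental and 4.92 in the Lingo2 library. Hbegf was read at 64.7 CPM in the Lingo2 knockout against 31.2 in the scratched and 37.9 in the unscratched parental library, with 68.9, 60.7 and 60.1 in the Lingo1, Lingo3 and TROY knockouts. Hbegf, a membrane-anchored ligand, was 2.07-fold higher (1.91 to 2.24), but 1.71-fold higher than in the unscratched control. For Egfr the parental libraries gave 14.8 CPM unscratched and 13.5 scratched, the Lingo2 knockout 6.51, and the Lingo1, Lingo3 and TROY knockouts 6.53, 4.95 and 7.88. The receptor gene was 2.08-fold lower (1.74 to 2.48), and all 4 mutants lay below both parental libraries.

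Of 20 tested genes of HGF, FGF and PDGF signalling, 4 were higher and 1 lower. Mst1, which codes for macrophage stimulating protein, and Mst1r, its receptor RON, were both higher, by 3.11 and 3.23-fold, from 1.51 to 4.71 CPM and from 1.48 to 4.78 CPM. Flt1, a VEGF receptor, was 2.21-fold higher (1.89 to 2.59). Pdgfrb, a mesenchymal growth factor receptor, had 1 read in the scratched parental and 3 in the unscratched library, 37 in the Lingo2 knockout and 52, 348 and 13 in the Lingo1, Lingo3 and TROY knockouts, a ratio of 39.8 to the scratched parental library with an interval of 6.72 to 1615. Fgf7, a growth factor for epithelia, was 2.60-fold lower (1.70 to 4.09).

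**Figure D2:**
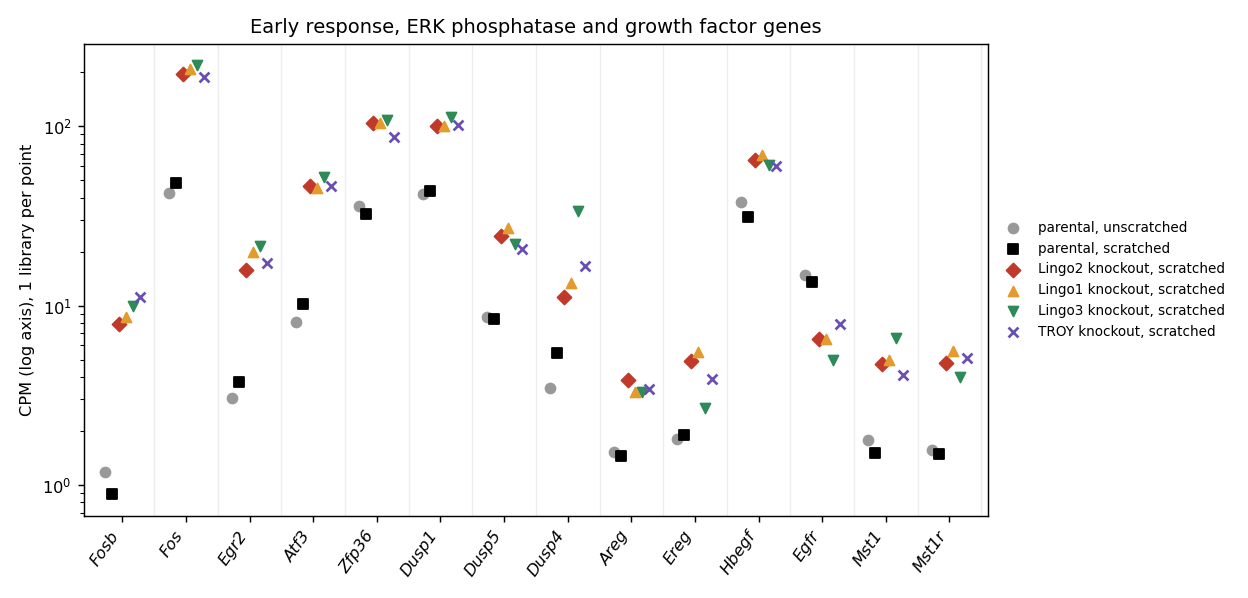
CPM (log axis) of 14 genes in the 6 libraries, 1 point per library. Both parental libraries lie below the 4 mutants for every gene shown but Egfr, where they lie above them.

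The promoter of each called gene was searched, where RefSeq gave one, in the 250 bases before its start on GRCm38.p6, for the CArG box bound by serum response factor, for the AP-1 site (TGACTCA or TGAGTCA) and for the cyclic AMP response element (TGACGTCA), on both strands. A gene was counted where any of its promoters held the letters. The CArG box was found in 9 of 168 higher genes (5.36%) and 1 of 106 lower genes (0.943%) with a promoter. The shares were 1.37% of the 9352 tested genes and 1.62% of all 27025 genes with a promoter. The AP-1 site was found in 17 of 168 (10.1%) and 7 of 106 (6.60%), against 3.999% and 5.16%. The cyclic AMP element was found in 4 of 168 (2.38%) and 0 of 106, against 3.19% and 1.77%. A match is a string of letters and not a bound site, and no match says only that the letters are not in this window. Promoters of 7 higher genes are shown, the last 200 bases before the start, from RefSeq, with the matched letters in capitals. Dusp5 and Egr2 hold CArG boxes, Dusp1 and Areg the cyclic AMP element, and Sprr1a, Krt13 and Sftpb, described below, the AP-1 site.
Dusp5, chr19:53528945-53529144, plus strand: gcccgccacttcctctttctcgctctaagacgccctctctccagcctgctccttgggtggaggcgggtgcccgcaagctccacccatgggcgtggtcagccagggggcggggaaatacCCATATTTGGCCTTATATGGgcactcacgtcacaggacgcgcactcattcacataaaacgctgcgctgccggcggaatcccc
Egr2, chr10:67537669-67537868, plus strand: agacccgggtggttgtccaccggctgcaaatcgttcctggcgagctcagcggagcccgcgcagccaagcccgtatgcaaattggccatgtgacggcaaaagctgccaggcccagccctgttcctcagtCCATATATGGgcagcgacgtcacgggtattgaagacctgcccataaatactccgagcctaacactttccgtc
Dusp1, chr17:26508473-26508672, minus strand: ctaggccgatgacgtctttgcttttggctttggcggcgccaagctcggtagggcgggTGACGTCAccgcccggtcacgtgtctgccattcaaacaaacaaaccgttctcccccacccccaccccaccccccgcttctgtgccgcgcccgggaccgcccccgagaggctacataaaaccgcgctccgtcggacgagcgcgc
Areg, chr5:91139399-91139598, plus strand: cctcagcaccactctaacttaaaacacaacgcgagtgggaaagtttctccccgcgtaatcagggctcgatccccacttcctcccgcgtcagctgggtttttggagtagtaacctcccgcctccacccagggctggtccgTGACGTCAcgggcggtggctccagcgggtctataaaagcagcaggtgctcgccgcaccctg
Sprr1a, chr3:92485882-92486081, minus strand: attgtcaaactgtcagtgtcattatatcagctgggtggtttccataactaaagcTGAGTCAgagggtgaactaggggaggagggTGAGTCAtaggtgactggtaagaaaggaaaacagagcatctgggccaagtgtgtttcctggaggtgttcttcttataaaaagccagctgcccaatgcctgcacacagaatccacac
Krt13, chr11:100120578-100120777, minus strand: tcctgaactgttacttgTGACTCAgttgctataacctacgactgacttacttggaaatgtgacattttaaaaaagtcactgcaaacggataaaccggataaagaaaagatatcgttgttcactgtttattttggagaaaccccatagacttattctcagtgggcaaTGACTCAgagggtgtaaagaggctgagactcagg
Sftpb, chr6:72304410-72304609, plus strand: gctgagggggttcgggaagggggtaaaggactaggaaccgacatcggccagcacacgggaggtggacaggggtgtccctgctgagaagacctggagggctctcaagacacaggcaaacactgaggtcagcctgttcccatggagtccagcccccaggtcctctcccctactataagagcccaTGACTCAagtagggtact

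Some genes of stratified and barrier epithelium were higher. Of 7 tested cornified envelope genes, which code for the crosslinked protein shell and the desmosome parts of squamous cells, 4 were higher and 0 lower, and all 7 had a ratio above 1 (median log2 fold 1.55). Against the unscratched control that median was 0.71, and with no filter on low expression it was 0.81. Of the 23 members of the list, 16 were not tested. The filter lets genes high in the mutants pass more easily, so the 1-sided count is partly set by it. Sprr2a3 stood at 1.85 CPM in the unscratched and 3.12 in the scratched parental library, at 25.2 in the Lingo2 knockout, and at 18.4, 44.9 and 15.0 in the Lingo1, Lingo3 and TROY knockouts. It was 8.05-fold higher (6.49 to 10.1), and the SPRR genes share near-identical sequence, so its reads could come from a paralog. The levels of Sprr1a were 8.38 and 10.8 CPM in the unscratched and scratched parental libraries, 31.6 in the Lingo2 knockout and 24.3, 51.6 and 22.9 in the Lingo1, Lingo3 and TROY knockouts. Sprr1a was 2.94-fold higher (2.58 to 3.34). Dmkn and Cdsn were 7.80-fold and 3.17-fold higher, but 3.27-fold and 1.27-fold higher than in the unscratched control.

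Of 6 tested keratins, 2 were higher. For Krt14 the parental libraries gave 49.1 CPM unscratched and 43.4 scratched, the Lingo2 knockout 179, and the Lingo1, Lingo3 and TROY knockouts 175, 203 and 127. Krt14, the basal cell keratin (chromosome 11, 100203162 to 100207548), was 4.13-fold higher (3.89 to 4.39), with its usual partner Krt5 at 0 reads in all 6 libraries. Krt13, a mucosal keratin, was 3.25-fold higher (2.44 to 4.37) from 2.14 to 6.93 CPM. The simple epithelial keratins were the abundant ones, and Krt8 had a ratio of 1.62 and Krt19 of 1.27. Trp63 was read at 3.47 CPM in the Lingo2 knockout against 0.855 in the scratched and 1.12 in the unscratched parental library, with 4.01, 13.5 and 2.83 in the Lingo1, Lingo3 and TROY knockouts. Trp63, the master factor of basal cells, was 4.06-fold higher (2.61 to 6.51). Among 25 tested epithelial lineage transcription factors, 3 were higher (Gata5, Trp63 and Cebpa) and 0 lower, and Nkx2-1, the lung epithelial factor, had a ratio of 1.14. The median log2 fold of that list was 0.18 and turned to -0.012 against the unscratched control. The levels of Gata5 were 0.244 and 0.263 CPM in the unscratched and scratched parental libraries, 6.93 in the Lingo2 knockout and 5.63, 11.8 and 5.05 in the Lingo1, Lingo3 and TROY knockouts. Gata5, a factor of endoderm and heart, was 26.4-fold higher (13.1 to 61.9).

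Of 27 mucosal secretory genes 3 were tested and all 3 were higher, while 24 were not tested and 8 had 0 reads in all libraries. The expression filter averages over the mutant libraries as well, so a gene high in them passes it more easily. That all tested members were higher is partly set by this filter. Gkn2 stood at 0.873 CPM in the unscratched and 1.28 in the scratched parental library, at 9.55 in the Lingo2 knockout, and at 8.41, 11.1 and 7.58 in the Lingo1, Lingo3 and TROY knockouts. Gkn2, a gastric mucosal peptide, was 7.45-fold higher (5.31 to 10.7), and Muc5ac and Muc5b, which code for gel-forming mucins and lie side by side on chromosome 7, were 2.67-fold higher (1.92 to 3.76) and 2.03-fold higher (1.90 to 2.18). The Muc5b level went from 40.3 to 81.8 CPM, and its fold against the unscratched control was 1.89, short of the rule. Slurp1 and Lypd2, neighbours on chromosome 15 that code for secreted and anchored relatives of Ly6, were also higher, by 4.99-fold and 3.08-fold. Slurp1, Lypd2 and Lad1 were chosen for the plot after their values were seen.

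Alveolar type II cell genes were called in both directions, the lower one by a single gene. Of 10 tested, 4 were higher and 1 lower (median log2 fold 0.50), while 0 of 18 type I cell genes passed the rule (median 0.16). Sftpb was read at 144 CPM in the Lingo2 knockout against 35.6 in the scratched and 40.1 in the unscratched parental library, with 164, 164 and 87.0 in the Lingo1, Lingo3 and TROY knockouts. For Sftpc the parental libraries gave 16.5 CPM unscratched and 18.3 scratched, the Lingo2 knockout 42.0, and the Lingo1, Lingo3 and TROY knockouts 40.7, 81.9 and 19.8. Sftpb and Sftpc, which code for the hydrophobic surfactant proteins, were 4.06-fold higher (3.79 to 4.34) and 2.29-fold higher (2.07 to 2.54). Sftpa1 had at most 1 read and Sftpd had 0 in any library, and Abca3, the lipid transporter of lamellar bodies, had a ratio of 0.9502. Cebpa was 2.58-fold higher (1.93 to 3.48) and Cd74 3.10-fold higher (1.96 to 5.05), the latter from 26 to 75 reads. Cxcl15, a lung chemokine, was 2.39-fold lower (1.502 to 3.92). Against the unscratched control Cd74 and Cxcl15 fell short of the rule, with ratios of 2.17 and 0.613. Among type I genes Ager and Hopx had ratios of 1.37 and 1.17.

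**Figure D3:**
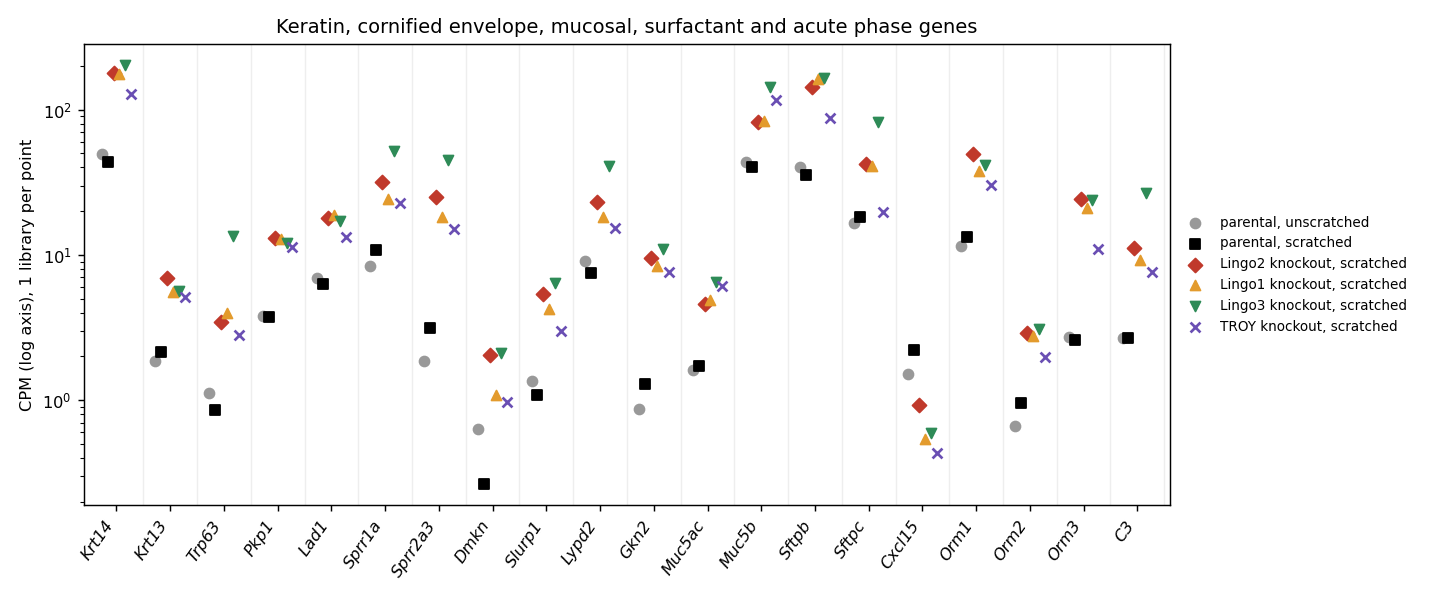
CPM (log axis) of 20 epithelial, mucosal, surfactant and acute phase genes in the 6 libraries, 1 point per library. The Lingo2 knockout lies above both parental libraries for each gene but Cxcl15.

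Acute phase genes were among the higher ones, with 4 of 16 tested complement and acute phase genes higher and 1 lower (median log2 fold 0.57). The levels of Orm3 were 2.72 and 2.60 CPM in the unscratched and scratched parental libraries, 24.3 in the Lingo2 knockout and 20.97, 24.0 and 10.97 in the Lingo1, Lingo3 and TROY knockouts. The 3 orosomucoid genes, which code for plasma transport glycoproteins and lie in 1 cluster on chromosome 4, were higher by 3.73-fold (Orm1), 3.04-fold (Orm2) and 9.37-fold (Orm3), but they share near-identical sequence and their reads may be exchanged among them. C3, the central complement protein, was 4.16-fold higher (3.25 to 5.38). Cfp, which codes for properdin, was 2.84-fold lower (2.10 to 3.88).

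Chymase-type proteases known from mast cells were higher, with 3 of 4 tested mast cell genes called. For Mcpt1 the parental libraries gave 25.2 CPM unscratched and 33.8 scratched, the Lingo2 knockout 159, and the Lingo1, Lingo3 and TROY knockouts 169, 59.5 and 99.9. Mcpt1 was 4.69-fold higher (4.38 to 5.02), and Mcpt2 and Cma1, in the same cluster on chromosome 14 with Gzme, were 2.04-fold higher (1.77 to 2.36) and 2.49-fold higher (1.90 to 3.28). In the Lingo3 knockout Mcpt1 lay above both parental libraries but below the other mutants, while Mcpt2 stood at 3.38 CPM against 9.96 in the scratched parental library. The summed level of the 12 mast cell genes was 47.2 and 59.2 CPM in the unscratched and scratched parental libraries and 202 in the Lingo2 knockout. The genes that define mast cells were nearly absent, with Tpsb2 at 0 reads in all libraries and Cpa3 at 0 save for 1 read of the scratched parental library, while Kit had a ratio of 1.25. Other cell types were looked for in the same way. Ptprc, the pan-leukocyte marker, had at most 3 reads, 2 of 18 leukocyte markers were tested and 0 called, and Scgb1a1 of club cells had at most 2 reads. Of fibroblast and smooth muscle markers, 7 of 16 were tested and 2 were higher (Pdgfrb and Col1a1), with Col1a2 at most 3 reads and Lum at most 1, while Dcn was abundant in all 6 libraries (2532 and 3321 CPM). In a bulk library fewer cells of a type and less RNA per cell cannot be told apart.

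Matrix and adhesion genes were called in both directions, beside 60.5% higher among all called genes. Of 33 tested matrix proteoglycans and glycoproteins, 4 were higher and 0 lower (median log2 fold 0.33). Bgn stood at 0.733 CPM in the unscratched and 0.756 in the scratched parental library, at 12.6 in the Lingo2 knockout, and at 14.9, 98.3 and 5.29 in the Lingo1, Lingo3 and TROY knockouts. Biglycan, a small proteoglycan, was 16.6-fold higher (10.9 to 26.5), with the Lingo3 knockout higher still. Spp1 (osteopontin) was 5.74-fold higher (3.28 to 10.7), Fbln2 2.64-fold higher (2.07 to 3.39) and Ecm1 2.31-fold higher (2.17 to 2.47), the last 1.83-fold against the unscratched control. Collagen chains went both ways, with 2 higher and 2 lower of 18 tested. Col1a1 was read at 136 CPM in the Lingo2 knockout against 44.8 in the scratched and 62.3 in the unscratched parental library, with 170.2, 398 and 146 in the Lingo1, Lingo3 and TROY knockouts. Col1a1 was 3.03-fold higher (2.85 to 3.23) and Col18a1 2.34-fold higher (2.14 to 2.55), whereas the fibril-regulating Col11a1 was 8.65-fold lower (4.87 to 16.7) and Col11a2 2.11-fold lower (1.72 to 2.62). Of 23 matrix proteases and inhibitors, 2 were lower, Adamts10 (2.37-fold) and Adam8 (3.06-fold).

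Of 26 tested cadherin and junction genes, 5 were higher and 0 lower (median log2 fold 0.02). Cdh4, which codes for R-cadherin, had 0 reads in the scratched and 1 in the unscratched parental library, 67 in the Lingo2 knockout, and 85, 184 and 49 in the Lingo1, Lingo3 and TROY knockouts. Against a floor of 3 reads in the parental library it was at least 24.0-fold higher. Pkp1 (plakophilin 1, a desmosome protein) was 3.52-fold higher (2.85 to 4.39), Gjb5 (a connexin) 3.81-fold higher (2.02 to 7.68), Cdh13 2.24-fold higher (1.99 to 2.51) and Epcam 2.11-fold higher (1.68 to 2.65), while E-cadherin (Cdh1) had a ratio of 1.47. Of 20 integrin and laminin genes, Lamb3 and Itga6, both parts of hemidesmosomal adhesion, were 2.76-fold higher (2.38 to 3.20) and 2.08-fold higher (1.85 to 2.34), and Itgb8, which activates latent TGF-beta, was 2.64-fold lower (2.07 to 3.38). The levels of Anxa8 were 152 and 146 CPM in the unscratched and scratched parental libraries, 513 in the Lingo2 knockout and 458, 456 and 349 in the Lingo1, Lingo3 and TROY knockouts. All 20 tested S100 proteins and annexins had a ratio above 1 and 3 were called, with Anxa8 3.52-fold higher (3.41 to 3.64), S100a4 3.20-fold higher (2.54 to 4.05) and S100a14 2.63-fold higher (2.08 to 3.33). Anxa8 (chromosome 14, 34085981 to 34100571) had the largest gain in CPM of the called protein-coding genes. Of 15 mesenchymal transition genes, S100a4 was higher and Twist1 lower, with 2.27 and 0.212 CPM of Twist1, and Vim and Snai2 had ratios of 1.54 and 1.37.

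Among signalling lists, 4 of 27 tested Wnt pathway genes were higher and 0 lower (median log2 fold 0.14), of which Sfrp1, Sfrp2 and Sfrp5 code for secreted Wnt antagonists. Sfrp2 went from 1.35 to 6.33 CPM (4.70-fold), Sfrp5 from 0.625 to 2.83 (4.53-fold) and Lgr4, an R-spondin receptor, from 3.45 to 10.1 (2.93-fold). Sfrp1 had 3 reads against 15 (ratio 5.38, 1.52 to 29.0), and 263 in the Lingo3 knockout, a level that enters the average of the expression filter. With total counted reads as library size Sfrp1 fell short of the rule, so its call is the least secure of the 4. The TNF receptor superfamily had 2 lower and 1 higher of 18 tested. For Tnfrsf25 the parental libraries gave 15.7 CPM unscratched and 14.9 scratched, the Lingo2 knockout 3.96, and the Lingo1, Lingo3 and TROY knockouts 4.11, 2.30 and 4.89. Tnfrsf25, the death receptor DR3, was 3.75-fold lower (3.04 to 4.65), Tnfrsf4, the costimulatory receptor OX40, 4.65-fold lower (2.59 to 8.93), and the decoy receptor Tnfrsf22 3.17-fold higher (1.86 to 5.65). Plcb1, a phospholipase C that makes second messengers for calcium release, was 8.14-fold higher (6.35 to 10.6) from 71 to 537 reads, the 1 called gene of 23 in its list.

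Single members were called in further lists. They were Nt5e of 22 YAP and TAZ targets (2.12-fold), Id1 of 30 TGF-beta and BMP genes (2.01-fold), Notch1 of 12 Notch genes (2.69-fold), Efna3 of 47 axon guidance genes (2.70-fold), Tnfaip2 of 24 NF-kB targets (3.77-fold) and Cdkn1a, the p21 cell cycle inhibitor, of 26 p53 targets (3.27-fold). The folds of Id1 and of Igfbp4 fell under 2 with each other scaling tried. The YAP targets Ccn1 and Ccn2 had ratios of 1.53 and 1.75. Of 13 insulin-like growth factor genes Igfbp5 and Igfbp4, which bind the hormones outside the cell, were higher by 2.26-fold and 2.02-fold. Of 34 interferon response genes, Oas3 and Usp18 were higher (3.55-fold and 2.20-fold).

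**Figure D4:**
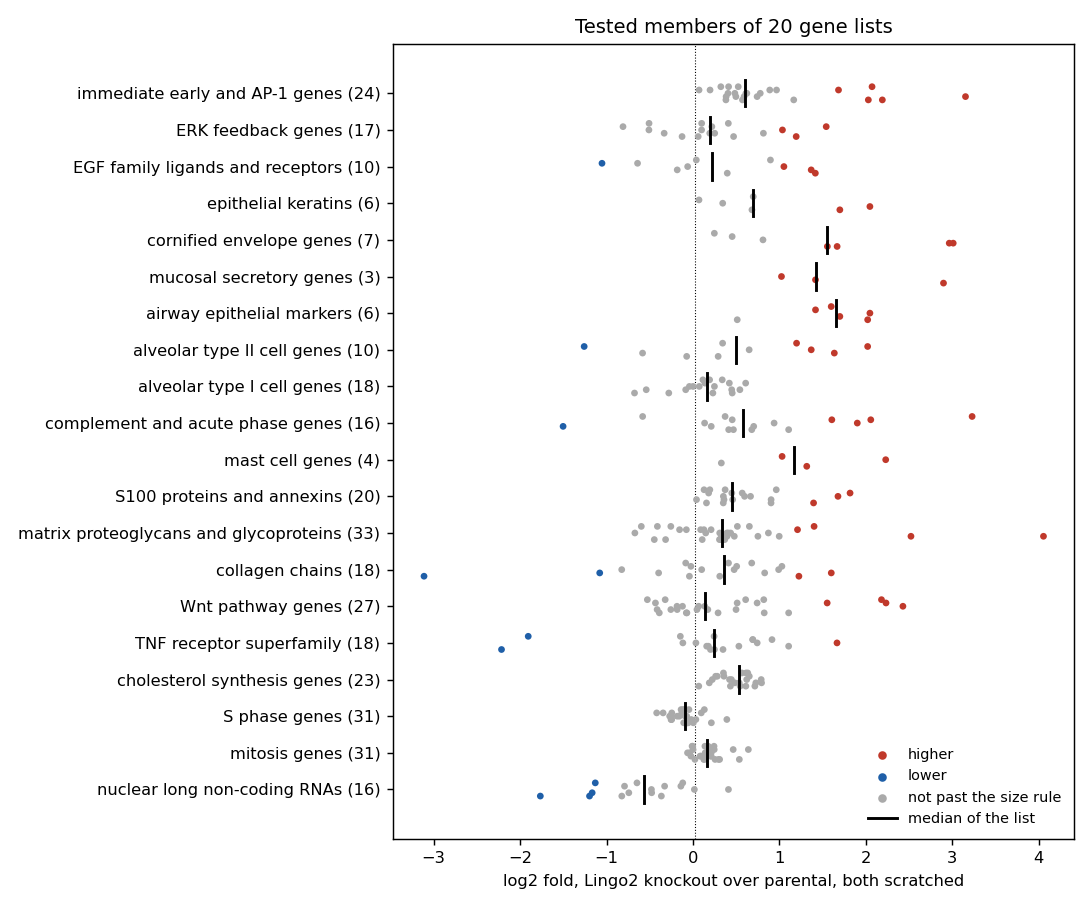
Log2 fold (Lingo2 knockout over parental, both scratched) of each tested member of 20 gene lists, 1 point per gene, with the number tested in parentheses, the list median as a bar and the median of all tested genes as a dotted line. Cornified envelope, mucosal, airway and mast cell lists have medians above 1 (for the cornified envelope list 0.71 against the unscratched control) and the nuclear long non-coding RNAs one below 0. Those first lists had 7 of 23, 3 of 27, 6 of 15 and 4 of 12 members tested. The airway list shares Krt14 and Krt13 with the keratin list, and 7 of its 15 members had 0 reads in all libraries.

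Several nuclear non-coding RNAs were lower. Of 16 tested, 4 were lower and 0 higher (Neat1, Xist, Malat1 and Dleu2), 14 had a ratio below 1 and the median log2 fold was -0.57. The share called lower was 25%, against 14.1% of all tested long non-coding and unclassified transcripts. The median log2 fold of those transcripts was -0.14. Neat1 stood at 479.8 CPM in the unscratched and 537 in the scratched parental library, at 158 in the Lingo2 knockout, and at 119.7, 99.5 and 129 in the Lingo1, Lingo3 and TROY knockouts. Neat1, the scaffold of paraspeckles, was 3.40-fold lower (3.29 to 3.52) and had the largest loss in CPM of the called genes (chromosome 19, 5824708 to 5845478). Malat1 was read at 116 CPM in the Lingo2 knockout against 254 in the scratched and 210.1 in the unscratched parental library, with 84.5, 68.9 and 118 in the Lingo1, Lingo3 and TROY knockouts. This neighbour of Neat1 on chromosome 19, which gathers in nuclear speckles, was 2.19-fold lower (2.10 to 2.28) and 1.81-fold lower than in the unscratched control. The 10 tested paraspeckle proteins had 0 calls and a median log2 fold of -0.09.

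The levels of Xist were 521 and 537 CPM in the unscratched and scratched parental libraries, 234 in the Lingo2 knockout and 256, 199 and 382 in the Lingo1, Lingo3 and TROY knockouts. Xist, which coats the inactive X chromosome, was 2.29-fold lower (2.23 to 2.36), and Ftx and Firre, also X-linked non-coding RNAs, were 2.54-fold lower (1.91 to 3.43) and 2.98-fold lower (2.32 to 3.86). Genes of chromosome X as a whole had a median log2 fold of 0.01, with 3 higher and 9 lower of 400 tested. Over all long non-coding and unclassified transcripts, 54 of 383 tested were lower (14.1%) and 7 higher (1.83%), while of 11451 protein-coding genes 105 were lower (0.917%) and 243 higher (2.12%). HTSeq settings are not given, so reads it assigned to no feature may lie in introns or outside genes. The share of such reads was lower in the Lingo2 knockout as well. It was 8.02% in the scratched and 7.80% in the unscratched parental library, 6.41% in the Lingo2 knockout and 5.44%, 4.98% and 6.20% in the Lingo1, Lingo3 and TROY knockouts, and its part in the lower non-coding RNAs was not tested.

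Messenger RNAs for some regulators of splicing were lower as well. For Rsrp1 the parental libraries gave 343 CPM unscratched and 329.8 scratched, the Lingo2 knockout 124, and the Lingo1, Lingo3 and TROY knockouts 103, 78.9 and 114. Rsrp1, which codes for an arginine and serine rich protein, was 2.67-fold lower (2.57 to 2.77), and Ccnl2, Leng8 and Tia1 were 2.08-fold, 2.03-fold and 2.02-fold lower. Leng8 and Tia1 did not pass the rule against the unscratched control. Ccnl2 is a cyclin of nuclear speckles and Tia1 an RNA-binding regulator of splicing and translation. In a list of splicing factors and their kinases that was drawn up after these values were seen, 4 of 53 tested were lower, 0 higher, 44 had a ratio below 1 and the median log2 fold was -0.30. That list includes Rsrp1 itself, so its counts describe these data and are no separate evidence. Genes with an annotated retained intron made up 57.1% of the lower, 44.9% of the higher and 60.7% of all tested protein-coding genes. The median levels of these groups were 3.81, 5.93 and 39.4 CPM, so the called genes differ from all tested ones in level.

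Several lower genes are best known from other tissues. Reads of Gpm6a numbered 1054 and 1095 in the unscratched and scratched parental libraries, 68 in the Lingo2 knockout and 118, 70 and 134 in the Lingo1, Lingo3 and TROY knockouts. Gpm6a, a membrane glycoprotein of neurons (chromosome 8, 54954843 to 55060871), was 15.0-fold lower (11.7 to 19.4) than in the scratched parental library, and the Lingo2 and Lingo3 knockouts were the lowest. Twist1 stood at 2.51 CPM in the unscratched and 2.27 in the scratched parental library, at 0.212 in the Lingo2 knockout, and at 0.180, 0.262 and 0.698 in the Lingo1, Lingo3 and TROY knockouts. Twist1, a factor of mesenchymal development, was 10.7-fold lower (4.67 to 30.1). The levels of Bves were 38.3 and 38.8 CPM in the unscratched and scratched parental libraries, 14.8 in the Lingo2 knockout and 17.4, 9.58 and 21.3 in the Lingo1, Lingo3 and TROY knockouts. Bves and Popdc3, neighbours on chromosome 10 that code for Popeye domain membrane proteins of muscle and epithelium, were 2.62-fold lower (2.34 to 2.93) and 2.54-fold lower (2.13 to 3.05). Dnah11, a ciliary dynein, was 3.80-fold lower (3.15 to 4.596), and Syne4, which links the nucleus to kinesin, 5.42-fold lower (2.92 to 10.99). Cilium genes went both ways, with Rsph1 6.46-fold higher (3.28 to 14.1) and Tppp3 3.03-fold higher (2.24 to 4.15).

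**Figure D5:**
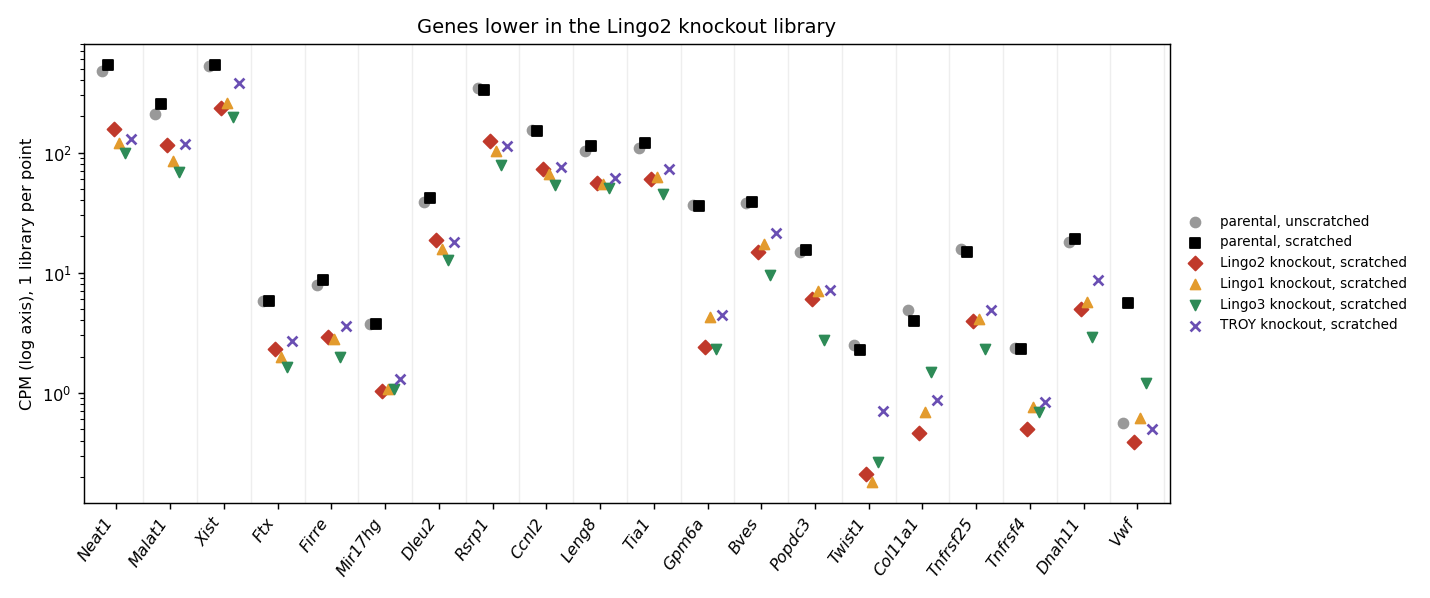
CPM (log axis) of 20 genes lower in the Lingo2 knockout library, in the 6 libraries, 1 point per library. Both parental libraries lie above the 4 mutants for every gene shown but Vwf, where the scratched parental library alone is high.

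Metabolic and cell cycle lists held few called genes. Cholesterol synthesis genes, 23 tested, all had a ratio above 1 but 0 passed the rule (median log2 fold 0.53). Of 19 fatty acid synthesis genes, Acss2, which makes acetyl-CoA from acetate, was 3.05-fold higher (2.61 to 3.58). Of 31 S phase genes 0 were called and 25 had a ratio below 1 (median -0.10), and of 31 mitosis genes 0 were called and 26 had one above 1 (median 0.16). Of 35 nuclear respiratory chain genes 0 were called (median 0.11). Atp6v0a4, a subunit of the vacuolar proton pump used by acid-secreting epithelia, was 4.30-fold higher (3.79 to 4.89), from 10.1 to 43.2 CPM, and was the 1 called of 21 subunits. Rdh10, an enzyme of retinoic acid synthesis, was 2.37-fold lower (2.11 to 2.67). Stra6, the retinol importer, had 1 read against 27 (ratio 29.1, 4.79 to 1189.7).

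Called genes lay next to each other at several places in the genome. Within 100 kb, 42 higher genes formed 18 clusters and 26 lower genes formed 13. How often any tested genes lie as close was not counted, so no excess of neighbours can be read from these numbers. A higher cluster of mt-Rnr2 and transfer RNA genes lies in the small mitochondrial genome. Clusters of related genes included the orosomucoid genes, the chymase genes, Ereg with Areg, Krt13 with Krt14, S100a14 with S100a4, the 2 mucins, Slurp1 with Lypd2, and Bves with Popdc3. Lad1, Tnnt2 and Pkp1 on chromosome 1 are unrelated neighbours. Malat1 and Neat1, both nuclear non-coding RNAs, are neighbours on chromosome 19. The lower pair Cmc4 and Mtcp1 on chromosome X overlap, so their reads may not be separable. Other lower pairs overlap as well, among them Dleu2 and Srcin1, each with a predicted gene inside it.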

How the data were processed

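RNA of 6 MLE12 cultures was prepared with a TruSeq messenger RNA kit, per the labels' protocols. The authors deposited raw counts per Ensembl gene, with the HTSeq summary lines, and a table of RPKM values and log2 ratios of them, in units per the file headers. Trimmomatic 0.39, STAR, HTSeq, edgeR and build GRCm38 are named in the submitters' processing notes, with no order or settings. Strand use is not given in the sources used here. Identifiers were matched to GENCODE M21 (45229 of 46078).

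The counts were scaled with TMM factors over all 6 libraries (edgeR 4.0.16, R 4.3.3) and given as CPM. The tested genes, 12078, averaged 1 CPM or more over the libraries. Folds are ratios of scaled counts, and the 95% interval of each comes from an exact Clopper-Pearson bound on how the reads of a gene split between libraries (scipy 1.17.1). No molecular identifier is named for the reads, so the intervals cover counting error and nothing else. A gene at 0 was set against a floor of 3 counts. The deposited log2 ratios, compared over 11819 genes, differed from the log2 folds here by a median of -0.0164 (SD 0.0029), with 403 of 403 matched called genes on the same side.

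Named genes are the LINGO genes and Tnfrsf19, the 12 genes each way whose fold was largest at the bound nearest to 1, the 8 each way with the largest CPM difference, and up to 4 called members of each of 56 gene lists. Predicted genes with Gm or Rik symbols, clone names and pseudogenes were left out of both rankings. The members and lists were chosen with earlier results of these data known, and 4 further lists and some named genes after their values were seen. The calculation was tested on simulated data. Alternatives tried were other library sizes, low-count filters, a stricter fold, the RPKM ratio, protein-coding genes only and the unscratched control. No test across samples was possible with 1 library per group. Promoter sequences are RefSeq's, on GRCm38.p6.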

Additional observations from a re-analysis of the deposited data

How the results depend on the processing

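No paired analysis was possible because each group has 1 library, and no library could be left out of a group. Against the scratched parental library the 256 higher and 167 lower genes became 130 and 55 when only genes averaging 5 CPM were kept, 83 and 43 with a fold of 3 and bound of 2, 450 and 378 from the authors' RPKM ratio with a fold of 2 and no interval, and 169 and 110 when both parental libraries had to pass, an alternative chosen after seeing the data, as was TMM over protein-coding genes. The lower count was 404 with no filter and 105 in protein-coding genes. Without the filter the higher count was 351, so lower genes outnumbered higher ones. Against the Lingo1 knockout the 2 higher genes became 15 with no filter, 0 in protein-coding genes and 1 with the stricter fold, and the 0 lower became 8 with no filter. Against the Lingo3 knockout 44 higher and 151 lower became 72 and 287 with no filter, 29 and 53 at 5 CPM, and 7 and 55 with the stricter fold. Against the TROY knockout 31 higher and 13 lower became 68 and 30 with no filter, and 4 and 0 with the stricter fold, and the higher count was 6 at 5 CPM and 20 in protein-coding genes. The median log2 fold of epithelial lineage transcription factors turned to -0.012 against the unscratched control. Over the named genes and all alternatives, 508 folds stayed on their side of the rule, 54 fell short of it and 0 turned direction. The cause was not tested. The other scalings moved the median log2 fold of all genes by 0.07 or less (-0.07 with total counted reads). Depth limits genes of few reads, where the interval spans several fold.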

Other observations

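Further genes past the size rule, chosen after their values were seen, fall outside the lists. The nuclear receptor Vdr, which binds vitamin D, went from 0.329 CPM in the scratched parental to 1.49 in the Lingo2 knockout library, and was 4.52-fold higher (2.23 to 10.1). Alpl, the tissue-nonspecific alkaline phosphatase, was 6.59-fold higher (3.10 to 16.1), and Alpi, the intestinal one, 6.37-fold higher (3.43 to 12.9). Cmklr1, the chemerin receptor, was 8.07-fold higher (3.84 to 19.5) and Susd2 4.52-fold higher (4.09 to 5.004). Against the unscratched control Alpl was 3.82-fold and Cmklr1 3.58-fold higher. Nr1d1 and Dbp, output genes of the circadian clock, were 2.80-fold higher (2.499 to 3.13) and 2.08-fold higher (1.76 to 2.47), the called members among 16 tested clock genes of a list drawn up after the values were seen. The mitochondrial ribosomal RNA mt-Rnr2 had the largest gain in CPM of the called genes, from 701 to 1433, a fold of 2.04 that was 1.95 with total counted reads as library size.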
